A study of Mus musculus with 7 samples.

Results

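The 8 rows described here are the 7 islet transcription factor genes Nkx2-2, Rfx6, Pdx1, Mafa, Neurod1, Isl1 and Nkx6-1 and the antisense gene Nkx2-2os. They were taken by symbol out of the 48440 rows of a table of read counts, after the Ensembl IDs had been matched to the mouse annotation on mm10. Female NOD.hALOX12 mice were dosed from 6 to 10 weeks of age, that is, for 4 weeks, with vehicle (4 libraries) or with VLX-1005 at 30 mg/kg per day (3 libraries). NOD mice develop autoimmune diabetes, and VLX-1005 inhibits human 12-lipoxygenase. In both groups the human gene ALOX12 stood in place of mouse Alox15 in every tissue, so the vehicle mice were not ordinary NOD mice. RNA came from islets freed by collagenase digestion, hand-picked and rested overnight in culture, and it was made into strand-specific mRNA libraries.

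Transcription factors of this set act in sequence and together in the endocrine pancreas. Rfx6 and Neurod1 act in endocrine progenitors and again in mature cells, Nkx2-2 and Isl1 are used by several islet cell types, and Pdx1, Nkx6-1 and Mafa keep mature beta cells able to make and release insulin. Nkx2-2os is annotated as a noncoding transcript that starts inside Nkx2-2 and runs past its start on the other strand.

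Of the 8 rows as counted, Nkx2-2os alone had more than 149 counts. It held 4816 counts over the 7 libraries, which was 92.7% of the 5193 counts on all 8 rows, and the 7 factors shared the other 377. Nkx2-2os, Rfx6 and Nkx2-2 had enough counts for the edgeR fit, and the other 5 rows were left out by its filter on low counts (10 counts at the median depth in at least 3 libraries). Among the 3 rows fitted, edgeR called none higher or lower under VLX-1005 at an adjusted p below 0.05, none was below 0.05 before adjustment, and DESeq2 called none either. Over all 4218 rows fitted, edgeR called 100 (2.37%) and DESeq2 197 (4.67%), and 759 (18.0%) and 693 (16.4%) were below 0.05 before adjustment, so that 0 of 3 does not set the members apart from other rows.

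Totals per library ranged from 1024586 to 1430785 counts, so that 3 counts, the most that a count of 0 allows, correspond to between 2.10 and 2.93 CPM. CPM are counts scaled to the library total, adjusted here by the TMM factors of edgeR, which correct for differences in RNA composition. Islet endocrine markers (Ins1, Ins2, Iapp, Gcg, Sst and Ppy) had counts in every library, and their summed level was 455 to 559 CPM under vehicle and 277 to 546 CPM under VLX-1005. Acinar markers, 1 of 8 of which was at 0 throughout, summed to 31.3 to 95.1 and 29.9 to 108 CPM. The row Casp9, which lies over the acinar marker gene Cela2a, held far more. It was at 6977 to 28901 CPM under vehicle and 6782 to 16415 CPM under VLX-1005. Whether the reads of that row came from acinar RNA was not tested. Markers of T, B and myeloid cells, 3 of 10 at 0, summed to 245 to 314 and 270 to 303 CPM, of which a single row, Csf1r (facing Hmgxb3), made up 98.1% to 100% in each library. Duct markers summed to 12.5 to 17.4 and 16.2 to 25.8 CPM, and endothelial and stromal markers to 1.56 to 4.17 and 3.89 to 8.56 CPM. Ribosomal RNA rows took 1.69% to 2.11% of the counts under vehicle and 2.15% to 3.14% under VLX-1005. The groups did not overlap in this share, so the fits below with it as a covariate cannot well separate share and treatment. The part that cell makeup played in the results below was not tested. In bulk RNA, fewer cells of a type and less RNA per cell cannot be told apart. The labels do not state that the libraries came from separate mice, so the p-values reflect how much these samples varied, and that variation may be technical.

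For Nkx2-2 and Neurod1, the annotation has an exon facing an exon of a noncoding gene, and at both loci the counts lay on the noncoding row. Nkx2-2 (mm10 chr2:147177546-147194243, minus strand) and Nkx2-2os (chr2:147184083-147331681, plus strand) share 278 bp. That stretch is the whole first exon of Nkx2-2os, is entirely coding sequence of Nkx2-2, and makes up 9.67% of the exon length of Nkx2-2 and 6.40% of that of Nkx2-2os. Neurod1 (chr2:79452521-79456751, minus strand) and the lincRNA gene Gm26755 (chr2:79453985-79461107, plus strand) share 154 bp, which is the first of the 2 exons of Gm26755 and is all coding sequence of Neurod1. The stretch of Gm26755, shown because this row held the most counts of all rows facing or nearest to a member, is printed in lower case on the plus strand, as the noncoding transcript reads, from the GENCODE M21 transcript sequences.
Gm26755, chr2:79453985-79454138: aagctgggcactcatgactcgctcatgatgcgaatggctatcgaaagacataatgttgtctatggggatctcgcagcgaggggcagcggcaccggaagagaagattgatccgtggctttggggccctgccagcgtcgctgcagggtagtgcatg

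**Figure D1:**
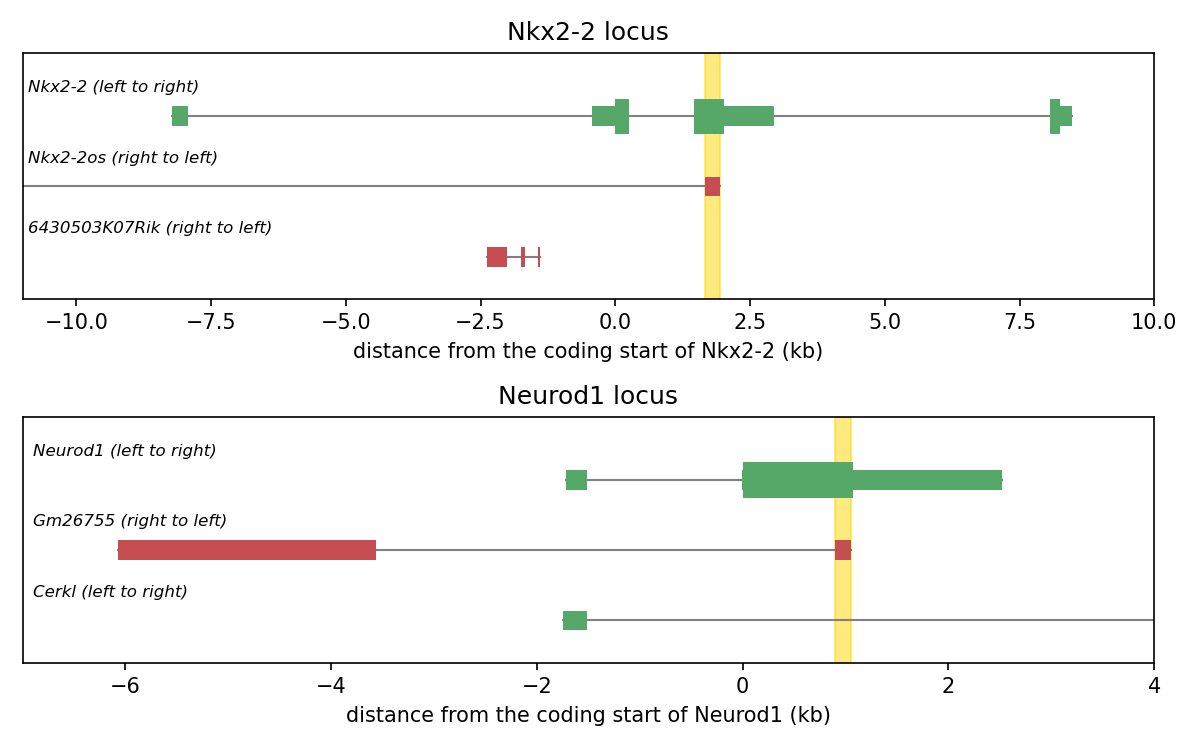
Exons at the Nkx2-2 locus (top) and the Neurod1 locus (bottom) against the distance from the coding start of the factor gene in kb, drawn in its direction of transcription, with each row of the figure labelled by the direction in which that gene is transcribed. Tall boxes are coding exons of the factor genes, lower boxes other exons, green the strand of the factor and red the other strand; the yellow bands are the 278 bp and the 154 bp shared across strands, which lie within the coding exons of Nkx2-2 and Neurod1.

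The libraries were made to keep the strand of each RNA, but the strand setting used in counting is not given in the sources used here. Counted with the opposite setting, reads of each gene of a facing pair would be credited to its partner within the shared stretch, and reads of a gene with no facing exon would be lost. Whether the counts of the row Nkx2-2os came from Nkx2-2os or from Nkx2-2, and those of the row Gm26755 from Gm26755 or from Neurod1, therefore cannot be told apart, and the table does not say where within a row its reads fell. All rows below are named as counted. Elsewhere in the table the noncoding row of such a pair also tended to hold more counts: among 2241 coding rows with an exon facing that of a noncoding row and with counts on the pair, the noncoding row was higher in 1798 (80.2%). Among the members and 32 other islet transcription factors it was higher in 5 of 6 such pairs (83.3%).

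Nkx2-2os had 642, 635, 681 and 746 counts in vehicle replicates 1 to 4 and 919, 583 and 610 counts in VLX-1005 replicates 1 to 3. Scaled to depth these were 535, 489, 623 and 583 CPM under vehicle and 625, 555 and 474 CPM under VLX-1005. The groups overlapped over nearly their whole range, with both the highest and the lowest library in the VLX-1005 group. The mean was 558 ± 57.8 CPM (SD, n = 4) under vehicle and 551 ± 75.5 CPM (n = 3) under VLX-1005, a log2 fold change of −0.012 ± 0.13 (SE; adjusted p = 0.972 in edgeR). The 95% interval of the ratio ran from 0.816 to 1.21. A second, shorter Ensembl gene of the same name (a miscellaneous RNA, chr2:147307181-147307638) had 0 counts in every library, which allows up to 3 counts in each. By total counts Nkx2-2os was row 326 of the table.

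Nkx2-2, a homeodomain factor, had 5, 12, 9 and 12 counts under vehicle and 15, 3 and 9 under VLX-1005. VLX-1005 replicates 1 and 2 were the highest and the lowest of all 7 libraries, and the vehicle libraries lay between them. Its level was 7.76 ± 2.44 CPM under vehicle (n = 4) and 6.68 ± 3.68 CPM under VLX-1005 (n = 3), with a log2 fold change of −0.17 ± 0.51 (adjusted p = 0.896 in edgeR). The 95% interval of the ratio ran from 0.412 to 1.92, so these data do not exclude a difference within those bounds. The value turned positive, to 0.45 ± 0.74, with the ribosomal RNA share as a covariate, and to 0.16 without VLX-1005 replicate 2. The groups did not overlap in the ribosomal RNA share, so that fit cannot well separate share and treatment. Nkx2-2 passed the filter on low counts narrowly. Without vehicle replicate 2, or without vehicle replicate 4, it was not fitted.

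For the pair, the share of counts on the Nkx2-2 row does not depend on scaling between libraries. That share was 0.773% (95% Clopper-Pearson interval 0.251% to 1.79%) in vehicle replicate 1, 1.85% (0.962% to 3.22%) in replicate 2, 1.3% (0.598% to 2.46%) in replicate 3 and 1.58% (0.821% to 2.75%) in replicate 4. Under VLX-1005 it was 1.61% (0.902% to 2.64%), 0.512% (0.106% to 1.49%) and 1.45% (0.667% to 2.74%) in replicates 1 to 3. These intervals cover counting error only and take each read as independent. The reads carried no molecular identifiers, so that independence could not be checked. All 7 intervals overlapped, and the antisense row held 74.1 times the counts of Nkx2-2 in all. The mean share was 1.38% ± 0.46 under vehicle and 1.19% ± 0.59 under VLX-1005, a difference of −0.19 percentage points that did not pass (two-sided exact permutation p = 0.629 over 35 allocations of the libraries, adjusted p = 0.943 over the 3 pairs compared; the smallest p possible was 0.0286). Summed as a single row, the pair had 586 to 934 counts per library. The log2 fold change of the sum was −0.014 ± 0.13 (95% interval −0.30 to 0.27, adjusted p = 0.968 in edgeR). For reads on the shared 278 bp, the sum does not depend on which of the rows they were given to. Reads outside that stretch would still be lost under the opposite setting, so the sum as a whole does depend on it.

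**Figure D2:**
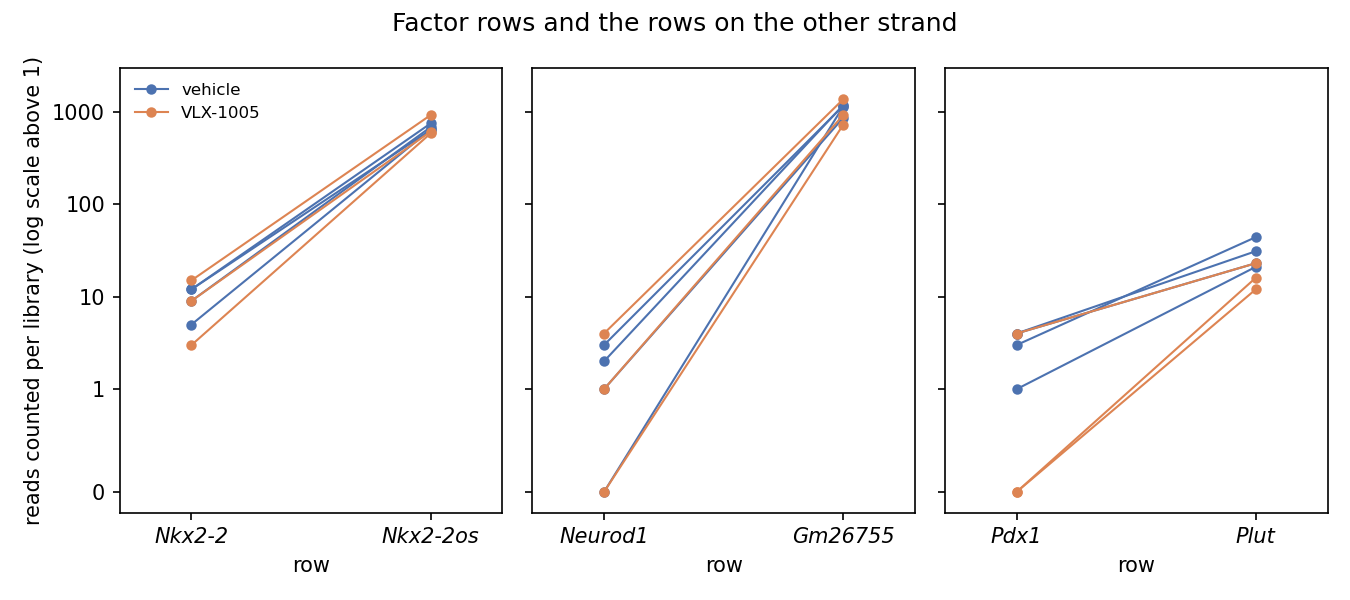
Counts per library of Nkx2-2, Neurod1 and Pdx1 (left of each panel) and of the row on the other strand (right), with a line for each of the 4 vehicle (blue) and 3 VLX-1005 (orange) libraries, on a log axis above 1. In each of the 7 libraries the row on the other strand held more counts than the factor, at all 3 loci.

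Across the 7 libraries, the level of Nkx2-2os did not follow that of Nkx2-2 beyond what permutation of the libraries gives (Pearson r = 0.283, exact permutation p = 0.528; Spearman rho = 0.50, exact permutation p = 0.267; adjusted p = 0.596 and 0.533 over the 2 relations computed). Leaving out the 2 libraries farthest from the median of Nkx2-2os left r = 0.101. With Gm26755, the noncoding row at Neurod1, r was 0.227 (exact permutation p = 0.596) and rho 0.286 (exact permutation p = 0.556), and r was −0.31 without the 2 farthest libraries. For the other neighbour of Nkx2-2, 6430503K07Rik, a 476 bp antisense row inside an Nkx2-2 intron that shares no exon with it, the counts were 12, 16, 6 and 6 under vehicle and 24, 7 and 18 under VLX-1005. Its groups overlapped, and the log2 fold change was 0.61 ± 0.47 (adjusted p = 0.516 in edgeR).

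Neurod1, a basic helix-loop-helix factor that activates insulin transcription, could not be measured on its own row. It had 2, 0, 1 and 3 counts under vehicle and 4, 0 and 1 under VLX-1005, all within a few counts of 0. On the other strand Gm26755 had 1176, 1135, 857 and 1156 counts under vehicle and 1360, 721 and 919 under VLX-1005. That is 666 times the counts of the row Neurod1, and which of the pair gave those reads cannot be told apart. The level of Gm26755 was 886 ± 81.5 CPM under vehicle (n = 4) against 775 ± 131 CPM under VLX-1005 (n = 3). Its log2 fold change was −0.19 ± 0.13 (95% interval −0.47 to 0.10; adjusted p = 0.475 in edgeR), with the groups overlapping. The share of the pair on Neurod1 was 0.136% ± 0.108 and 0.134% ± 0.148 (two-sided exact permutation p = 0.943, adjusted p = 0.943). Neurod1 also shares its noncoding first exon (201 bp, 7.37% of its exon length) with the longer gene Cerkl on its own strand. Cerkl had 148, 81, 23 and 147 counts under vehicle and 271, 298 and 154 under VLX-1005. Every VLX-1005 library of Cerkl held more counts than every vehicle library, but scaled to depth VLX-1005 replicate 3 (120 CPM) fell below vehicle replicate 1 (123 CPM). Its log2 fold change of 1.28 ± 0.57 did not pass (adjusted p = 0.307 in edgeR), and it was 0.46 with the ribosomal RNA share as a covariate.

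Pdx1 (chr5:147269959-147275848, plus strand) overlaps the noncoding gene Plut at its start. Pdx1, a homeodomain factor of pancreas formation and of the insulin promoter, had 1, 4, 3 and 4 counts under vehicle and 4, 0 and 0 under VLX-1005. In 2 of the 3 VLX-1005 libraries it was not detected, whereas the other matched the highest vehicle libraries. From 12 counts against 4, the fit with no filter gave −1.22 ± 1.14 (adjusted p = 0.648 in edgeR), and these levels lie near the limit that a count of 0 allows. Plut (chr5:147228596-147271521), on the other strand and with no exon in common with Pdx1, had 21, 31, 44 and 23 counts under vehicle and 23, 12 and 16 under VLX-1005. Scaled to depth the groups of Plut did not overlap, at 17.5 to 40.2 CPM under vehicle and 11.4 to 15.6 CPM under VLX-1005, which held for 17.8% of all rows fitted and for 0 of the 3 members fitted. The means were 24.9 ± 10.6 CPM (n = 4) and 13.2 ± 2.21 CPM (n = 3), and the log2 fold change of −0.89 ± 0.36 did not pass after adjustment (adjusted p = 0.216 in edgeR). Without vehicle replicate 3, the highest library, it was −0.57. Pdx1 took 9.29% ± 4.69 of the counts of this pair under vehicle and 4.94% ± 8.55 under VLX-1005 (two-sided exact permutation p = 0.40, adjusted p = 0.943).

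Rfx6, Mafa, Nkx6-1 and Isl1, like Pdx1, have no annotated exon facing them. Among the 16433 coding rows of that kind the median was 1 count over all libraries and the 95th percentile 52, and a smaller total than Rfx6 was found in 98.3% of them, than Mafa in 96.4%, than Nkx6-1 in 94.97%, than Pdx1 in 86.3% and than Isl1 in 81.9%. So these rows had few counts in absolute terms, yet they ranked high among all annotated rows of the same kind. The 687 of those rows that could be fitted had a median of 122 counts. Rfx6 (149) lay above that median, and Mafa (73), Nkx6-1 (52), Pdx1 (16) and Isl1 (11) lay below it.

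Rfx6 (chr10:51677756-51730432, plus strand), a winged-helix factor of endocrine differentiation, had 20, 19, 26 and 36 counts under vehicle and 23, 7 and 18 under VLX-1005. Scaled to depth these were 16.7, 14.6, 23.8 and 28.1 CPM and 15.6, 6.66 and 14.0 CPM. Vehicle replicates 3 and 4 were the highest and VLX-1005 replicate 2 the lowest, and the groups overlapped because VLX-1005 replicate 1 lay above vehicle replicate 2. The mean was 20.8 ± 6.26 CPM under vehicle (n = 4) and 12.1 ± 4.78 CPM under VLX-1005 (n = 3), with a log2 fold change of −0.75 ± 0.38 (95% interval −1.57 to 0.07) that did not pass (adjusted p = 0.325 in edgeR). In 16 other settings the value stayed between −0.98 and −0.48 and passed in none. The nearest rows were at least 25741 bp away and held at most 1 count.

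Mafa (chr15:75745490-75748228, minus strand), a leucine-zipper activator of the insulin gene whose annotated gene is a single exon, had 5, 9, 4 and 5 counts under vehicle and 24, 21 and 5 under VLX-1005. VLX-1005 replicates 1 and 2 (16.3 and 20.0 CPM) lay above every vehicle library (3.66 to 6.94 CPM), while VLX-1005 replicate 3 (3.89 CPM) lay among them, so the groups overlapped. The means were 4.67 ± 1.53 CPM (n = 4) and 13.4 ± 8.43 CPM (n = 3). Mafa was left out of the main comparison by the filter, and in the fit with no filter its log2 fold change was 1.45 ± 0.54 (adjusted p = 0.260 in edgeR; 263 of 18578 rows, 1.42%, were called there). Without VLX-1005 replicate 3 it passed the filter and was called, at 1.91 ± 0.48 (adjusted p = 0.0403 in edgeR), in a fit that called 203 of 4485 rows (4.53%). All 4 vehicle libraries lay below the cutoff of the filter (7.82 CPM at the median depth), so Mafa was admitted there only through VLX-1005 replicates 1 and 2, after the library in which it was at the vehicle level had been left out, and that call is no support for a difference. The nearest row on its strand, Zc3h3, 6202 bp away, had 12, 16, 19 and 12 counts under vehicle and 14, 9 and 12 under VLX-1005 (log2 fold change −0.41 ± 0.38, adjusted p = 0.605 in edgeR).

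Nkx6-1 (chr5:101658139-101664996, minus strand), a homeodomain repressor that holds beta cell identity, had 8, 8, 9 and 14 counts under vehicle and 6, 4 and 3 under VLX-1005. Scaled to depth the vehicle libraries were at 6.67, 6.17, 8.23 and 10.9 CPM and the VLX-1005 libraries at 4.08, 3.80 and 2.33 CPM. All 3 VLX-1005 libraries were below all 4 vehicle libraries, and Nkx6-1 was 1 of the 5 members left out by the filter to show such a gap. Among the 4636 rows that the filter left out and that had at least 10 counts, 348 (7.51%) did. The means were 8.0 ± 2.15 CPM (n = 4) and 3.41 ± 0.94 CPM (n = 3), from 39 and 13 counts. In the fit with no filter the log2 fold change was −1.23 ± 0.65 (adjusted p = 0.648 in edgeR), and with a filter of 1 CPM in 3 libraries −1.22 ± 0.60 (adjusted p = 0.410 in edgeR; 164 of 9034 rows, 1.82%, were called there), so it passed in neither. Its nearest rows held at most 1 count.

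Isl1 (chr13:116298281-116309689, minus strand), a LIM-homeodomain factor, had 1, 1, 2 and 0 counts under vehicle and 4, 2 and 1 under VLX-1005. A single VLX-1005 library exceeded 3 counts, and no difference was detectable from so few counts. Parp8, the nearest row on its strand at 545131 bp, had 8, 9, 13 and 5 counts under vehicle and 4, 2 and 5 under VLX-1005.

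**Figure D3:**
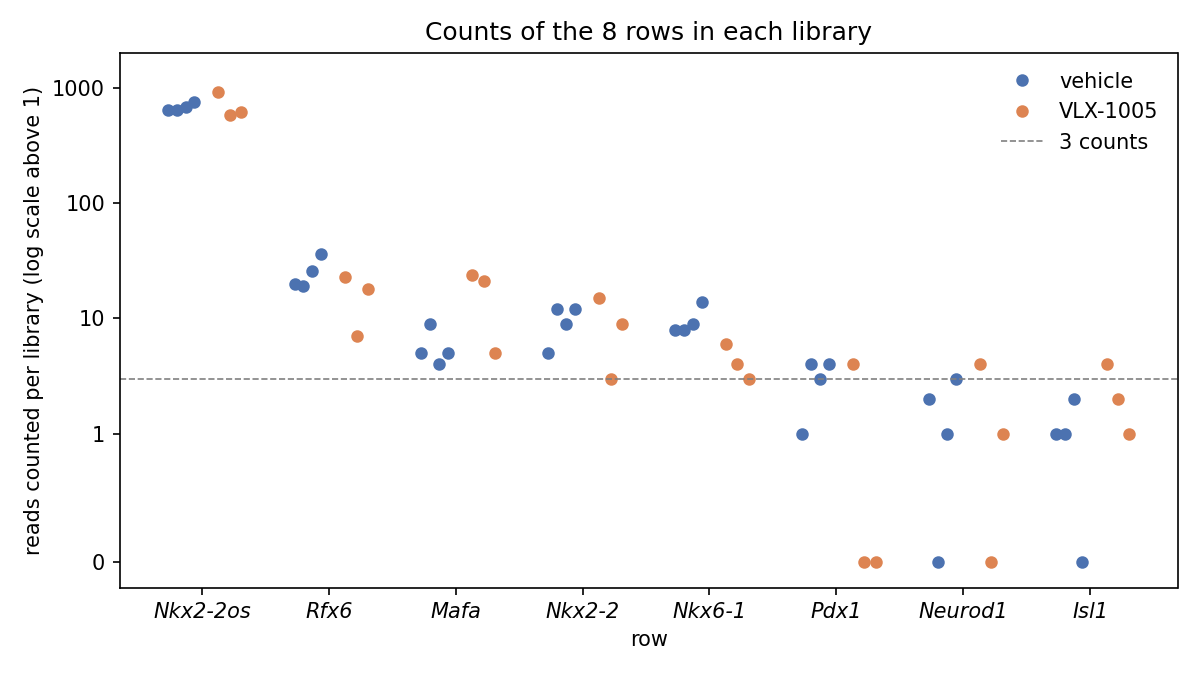
Counts of the 8 rows in each vehicle (blue, n = 4) and VLX-1005 (orange, n = 3) library, on a log axis above 1, with rows ordered by total and replicates from left to right. Nkx2-2os lies at 583 to 919 counts, Rfx6 at 7 to 36, and Pdx1, Neurod1 and Isl1 at 4 counts or fewer in every library; the dashed line marks 3 counts.

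Per kilobase of exon, which adjusts for the length of a row, Nkx2-2os stood at 128 ± 13.3 CPM per kb under vehicle (n = 4), 24.7 times Rfx6 at 5.19 ± 1.56. This places all reads of the row on its 4345 bp of exon, whereas reads of Nkx2-2 credited to it could lie only on the 278 bp shared. As the strand setting is not known, rows with and without a facing exon may hold reads of different transcripts. The order given here is therefore that of rows as counted and not of RNA levels. Nkx2-2 followed at 2.70 ± 0.85, Nkx6-1 at 2.55 ± 0.68, Mafa at 1.70 ± 0.56, Pdx1 at 1.13 ± 0.50, Neurod1 at 0.451 ± 0.369 and Isl1 at 0.217 ± 0.189 CPM per kb. Nkx2-2os lay above Rfx6, and Rfx6 above Nkx2-2, in every vehicle library, whereas from Nkx2-2 downward each row overlapped the next. Under VLX-1005 (n = 3) the order was Nkx2-2os (127 ± 17.4), Mafa (4.89 ± 3.08), Rfx6 (3.02 ± 1.19), Nkx2-2 (2.32 ± 1.28) and Nkx6-1 (1.09 ± 0.30 CPM per kb), followed by Isl1, Neurod1 and Pdx1 at 0.420 to 0.455. There Mafa, Rfx6 and Nkx2-2 each overlapped the next, as did Nkx2-2 and Nkx6-1.

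Other transcription factors of the endocrine pancreas were covered more sparsely, with a median of 5.5 counts in all against 58.5 for the members. Of 32 listed, 5 had no count in any library, 20 had fewer than 10 counts over the 7 libraries, and 5 could be fitted. Of those 5, 2 had positive and 3 had negative log2 fold changes, with a median of −0.017 against −0.0072 over all rows fitted. None was called by edgeR or DESeq2, and 1 of 5 was below an unadjusted p of 0.05 in each tool, near the share over all rows (18.0% and 16.4%). Pax6, a paired-domain factor of all endocrine cells with no exon facing it, was the best covered, at 269, 482, 226 and 444 counts under vehicle and 491, 302 and 419 under VLX-1005. Its groups overlapped (log2 fold change 0.14 ± 0.20, adjusted p = 0.766 in edgeR). Insm1, a zinc-finger factor of endocrine differentiation, had 15, 14, 1 and 18 counts under vehicle and 48, 36 and 15 under VLX-1005. VLX-1005 replicates 1 and 2 were above every vehicle library and VLX-1005 replicate 3 was among them, as for Mafa. The log2 fold change of Insm1 was 1.42 ± 0.57 (adjusted p = 0.213 in edgeR), and it was called in the fit with no filter on low counts (1.39, adjusted p = 0.0405 in edgeR), while it was 0.72 with the ribosomal RNA share as a covariate. Nkx6-2 overlapped between groups (−0.017 ± 0.17, adjusted p = 0.972 in edgeR).

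**Figure D4:**
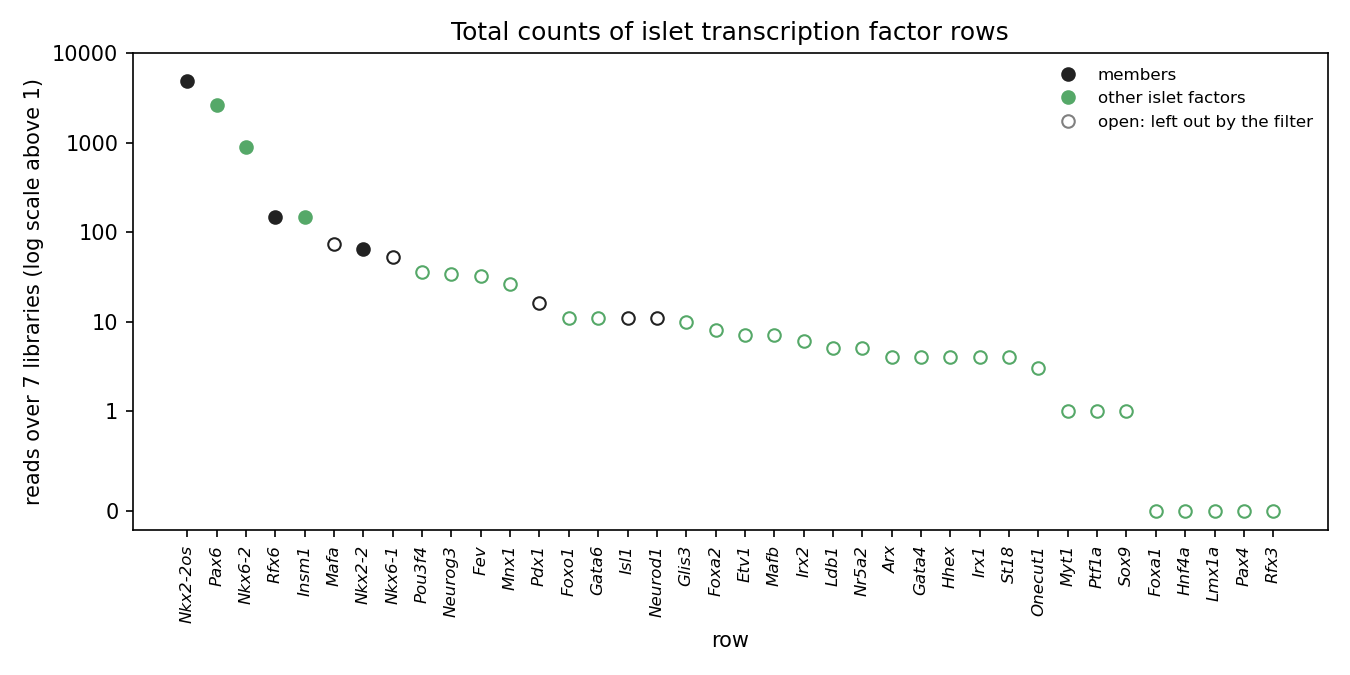
Total counts over the 7 libraries of the 8 members (black) and of 30 other islet transcription factors (green), on a log axis above 1, with filled points for the rows that could be fitted. Nkx2-2os (4816 counts) and Pax6 (2633 counts) lead, and 5 factors have no count.

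Of the rows named as the antisense partner of a factor, 6 were in the table and 2 could be fitted, Nkx2-2os and Ptf1aos, of which edgeR and DESeq2 called none (0 of 2 at an unadjusted p below 0.05 in each, against 18.0% and 16.4% of all rows). Ptf1aos, facing the acinar factor gene Ptf1a (1 count in all), had 150, 294, 368 and 96 counts under vehicle and 207, 348 and 268 under VLX-1005. It varied nearly 4 times within the vehicle group alone, and its log2 fold change was 0.25 ± 0.55 (adjusted p = 0.856 in edgeR). Nkx2-2os, by contrast, spanned 635 to 746 counts in that group. The other 4 held 1 to 11 counts each in all.

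Genes that these factors are known to regulate in beta and other endocrine cells had a median of 162.5 counts in all. Of 20 listed, 11 could be fitted, with 2 positive and 9 negative log2 fold changes and a median of −0.21 against −0.0072 over all rows fitted. None was called by edgeR or DESeq2, and 1 of 11 was below an unadjusted p of 0.05 in each, against 18.0% and 16.4% of all rows. Chgb, a granule protein gene and the best covered of these, had 425, 722, 542 and 748 counts under vehicle and 1168, 809 and 646 under VLX-1005, with the groups overlapping (0.47 ± 0.20, adjusted p = 0.233 in edgeR). Ins2 had 197, 166, 168 and 226 counts under vehicle and 210, 134 and 104 under VLX-1005 (−0.41 ± 0.21, adjusted p = 0.325 in edgeR). As counted, that is fewer than Nkx2-2os in every library. No row of the table has an exon facing Ins2, so its reads would be lost under the opposite strand setting. The counts of Ins2 and Nkx2-2os therefore do not compare as RNA levels. Kcnj11, the pore subunit of the potassium channel that couples glucose to insulin release, had 366, 331, 353 and 338 counts under vehicle and 417, 262 and 268 under VLX-1005 (−0.21 ± 0.15, adjusted p = 0.483 in edgeR). Pcsk2, a prohormone convertase gene, had 280 counts in all, and the row facing it, Pcsk2os2, had 272276.

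**Figure D5:**
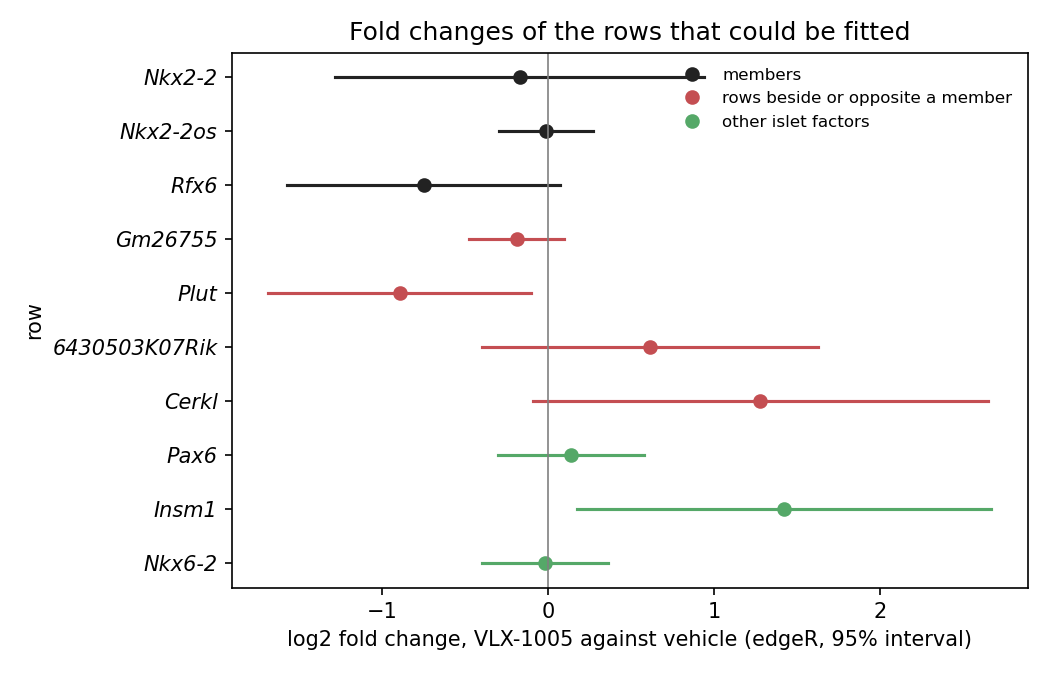
Log2 fold changes of VLX-1005 (n = 3) against vehicle (n = 4) from edgeR with 95% intervals (lines) for the 3 members that could be fitted (black), 4 rows beside or opposite a member (red) and 3 other islet factors (green). The narrowest member interval is that of Nkx2-2os, −0.29 to 0.27, the intervals of Plut and Insm1 do not hold 0, and no row shown passed after adjustment.

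By level across the 7 libraries, on the log2 CPM scale, the rows most like Nkx2-2os were Aida (facing Brox; r = 0.942), Slc43a2 (facing Gm45606; r = 0.917) and Znrf1 (facing Ldhd; r = 0.901). Those most like Rfx6 were BC029722 (facing Mmp24; r = 0.994), Mns1 (facing Tex9; r = 0.979) and Plet1 (facing Plet1os; r = 0.973), and those most like Nkx2-2 were Ccdc175 (facing Jkamp; r = 0.983), 1810014B01Rik (facing Hsp90b1; r = 0.957) and Gm16907 (facing 2010111I01Rik; r = 0.938). These are the highest values among about 1965 rows with a mean of at least 50 CPM, over the same 7 libraries and scaling, and are given as a description. All 9 rows have exons facing another gene, as did 81.0% of the rows fitted.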

How the data were processed

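The authors deposited raw read counts per Ensembl gene, 1 column for each of 7 islet libraries not normalized. Trimmomatic, FastQC, HTSeq, DESeq2 and mm10 are named in the submitters' processing notes, HISAT2 and Galaxy in the study's methods. Tool versions, annotation release and the strand setting of the counting were not given in the sources used here. IDs were matched without their version number to GENCODE M21 on mm10, which left 382 of 48440 without a position, and bedtools 2.31.1 listed exons facing each other across strands. No row was a total or named no gene.

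Groups were compared on the counts as deposited, in edgeR 4.0.16 (R 4.3.3), by its quasi-likelihood test with robust dispersion. No covariate was used, scaling was by TMM and low counts were filtered with filterByExpr. This left 4218 rows, and p-values were adjusted over these by the Benjamini-Hochberg method and called at 0.05. A log2 fold change is the VLX-1005 value over the vehicle value, ± SE. Pair shares and relations between rows had exact permutation tests, two-sided. Alternatives were DESeq2 1.42.0, other scaling and filters, a replicate block (without vehicle replicate 4), covariates, rows with no facing exon and omission of each library.

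Rows named in the text are all members, every row facing a member, the nearest row on each strand, up to 4 rows of each list by smallest p and up to 4 by most counts, and the 3 rows most like each fitted member at 50 CPM or more. Of rows meeting this rule, some are given only within counts or are not reported here. Pcsk2 and Pcsk2os2 lie outside it, chosen once their values had been seen, as were the alternative settings for Plut, Cerkl, 6430503K07Rik, Pax6 and Insm1 and the no-filter values of members left out. The members and lists were chosen with earlier results of these data known. The libraries differed by more than sampling noise (chi-square per degree of freedom 4.28 to 23.0 over 21 pairs).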

Additional observations from a re-analysis of the deposited data

Results flagged for a closer look

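Within the 4 vehicle libraries, 18 members, neighbouring rows and pair shares were checked for a library far from the others. The measure was the gap to the nearest library over the whole range (Dixon's ratio). For normally distributed values chance gives about 1 in 20, which does not hold for rows with few counts. A row with 1 count in a single library and 0 in the others always stands apart. In 4 rows a library stood apart. Mafa was highest in vehicle replicate 2, at 6.94 CPM, with the next library at 4.17 CPM. Pdx1 was lowest in vehicle replicate 1, at 0.834 CPM, from 1 count, with the next at 2.74 CPM. 4933411G06Rik, the row nearest to Rfx6 on the other strand, and 9430085M18Rik, the row nearest to Nkx6-1 on the other strand, each had 0.781 CPM in vehicle replicate 4, from 1 count, and 0 in the other vehicle libraries. None of these 4 gaps exceeds a few counts.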

How the results depend on the processing

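Over 16 other settings, no member was called except Mafa without VLX-1005 replicate 3 (0 to 1 members called over the omissions of a library). Rfx6 kept its sign in all 16 (adjusted p 0.277 to 0.936 in edgeR or DESeq2), and Gm26755 kept its sign in the 15 in which it was fitted. The sign of the near-zero values did not hold. Nkx2-2os was at 0.041 with library totals alone and ran from −0.12 to 0.077 over the omissions. With the replicate block, which leaves out vehicle replicate 4, it was at 0.018, against 0.021 when only that library was omitted. The sum of Nkx2-2 and Nkx2-2os was at 0.039 with library totals and 0.016 with the replicate block, and ran from −0.12 to 0.073 over the omissions. Nkx2-2 was fitted in 12 of the 16 settings, and not without vehicle replicate 2 or vehicle replicate 4. It was at 0.45 with the ribosomal RNA share as covariate and ran from −0.61 to 0.16 over the omissions in which it was fitted. The difference in the share of the pair on Nkx2-2 ran from −0.40 to 0.15, positive without VLX-1005 replicate 2. Insm1 was called with no filter (1.39). The cause of these changes was not tested.

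The main fit called 100 of 4218 rows (2.37%), and DESeq2 called 197 of 4218 (4.67%). With no filter 263 of 18578 were called (1.42%), and with 1 CPM in 3 libraries 164 of 9034 (1.82%). Among rows with no facing exon it was 9 of 750 (1.2%). As the rows fitted differ, these shares compare better than the numbers. With the level of Casp9 as covariate 53 were called. With the ribosomal RNA share as covariate edgeR called 0 of 4218 (260 at an unadjusted p below 0.05). The groups did not overlap in that share, so this fit cannot well separate share and treatment. The number called ran from 14 to 203 over the omissions (14, 23, 16 and 18 for vehicle replicates 1 to 4, and 104, 29 and 203 for those of VLX-1005). With the replicate number as a block it was 7. That fit left out vehicle replicate 4, which has no partner of the same number, and omitting this library alone gave 18. Same-numbered libraries showed little shared deviation (r = −0.03, −0.02 and 0.09). So few values, with no test, cannot decide whether the numbers pair the samples. Low counts kept 5 of the 8 members, with 11 to 73 counts in all, out of the main fit. Low counts also limit Nkx2-2, which had 65 and passed the filter narrowly. The part that depth or the strand setting played in this was not tested.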
